A study of Mus musculus with 15 samples.

Results

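Replication-dependent histone genes are the repeated gene copies that supply dividing cells with the linker histone H1 and the core histones H2A, H2B, H3 and H4, the proteins that package DNA. They were taken here as every protein-coding gene whose symbol begins with Hist1h, Hist2h, Hist3h or Hist4h, and the rule used no measured value. It found 67 of the 54532 genes of the expression table. The Hist1 cluster on chromosome 13 holds 54 of them, the Hist2 cluster on chromosome 3 holds 10, the Hist3 cluster on chromosome 11 holds 2, and Hist4h4 on chromosome 6 stands alone. By type there are 6 H1, 18 H2A, 18 H2B, 12 H3 and 13 H4 genes.

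As background, cells make most of this mRNA while they copy their DNA in S phase. Its 3′ end is formed in an unusual way: the stem-loop binding protein Slbp holds a short hairpin near the end, the U7 ribonucleoprotein guides a cut just after it, and no poly-A tail is added. Some of these genes can also give longer, spliced or tailed transcripts, which have been described in cells that have stopped dividing. The kidney libraries studied here were made from RNA captured on poly-T beads, which keeps tailed transcripts.

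The male C57BL/6 mice were 8 weeks old when they were obtained, and the kidneys were taken at the end of the diets and gavage described next, with 1 kidney per mouse and 5 mice per group. The C group ate a normal diet. The M group ate a diet with 0.25% adenine for 4 weeks, which damages the tubules and models chronic kidney disease, and then a standard diet up to week 8. The AA group had the same adenine diet and received asiatic acid, a plant triterpenoid, at 30 mg/kg per day by gavage, while C and M mice were gavaged with the vehicle, 1% DMSO in saline.

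Levels are given as FPKM, fragments per kilobase of gene length, scaled for sequencing depth and deposited by the authors, so levels of different genes can be compared per length. The libraries differed in depth. The reads on genes outside the mitochondrial genome, recovered from the steps of the FPKM values, numbered 6950498 to 13577294 in C, 2077725 to 7143316 in M and 2225721 to 4270301 in AA. Mitochondrial genes took 53.0 to 62.5% of the reads on genes in C, 64.0 to 86.8% in M and 69.2 to 87.2% in AA. M mice 1 to 3 stood apart from M mice 4 and 5, with 10068 to 12222 genes above 0 against 23040 and 25460. Calls that rest on M are therefore also given with M mice 4 and 5 only, except for the gene Gm42743 in the last section. Proximal tubule markers were present in every group, with a summed level over 15 markers of 3328 to 13848 FPKM in C, 155 to 676 in M and 270 to 697 in AA.

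The hairpin that defines these mRNAs was read from the annotated transcripts, and the copies below belong to the genes whose levels are described later. Each line gives 26 bases of the transcript strand in GRCm38 (GENCODE M21), written 5′ to 3′ with the 16-base stem-loop in capitals, and the coordinates are those of the capitals.

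Hist1h1c (chr13:23739512-23739527, plus strand): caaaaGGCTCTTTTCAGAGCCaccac
Hist1h2ac (chr13:23683477-23683492, minus strand): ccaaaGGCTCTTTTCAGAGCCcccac
Hist1h2bh (chr13:23542928-23542943, minus strand): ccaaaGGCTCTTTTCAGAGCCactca
Hist3h2a (chr11:58955172-58955187, plus strand): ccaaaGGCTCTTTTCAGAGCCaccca
Hist1h4h (chr13:23531458-23531473, plus strand): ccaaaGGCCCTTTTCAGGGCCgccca
Hist1h4i (chr13:22040966-22040981, minus strand): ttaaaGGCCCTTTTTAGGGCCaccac

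A match to the pattern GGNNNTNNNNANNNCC was found in an annotated transcript of 46 of the 67 histone genes, on the transcript strand. The variable bases between GG and T also had to pair with those between A and CC, as A with T, G with C or G with T. Under the same rule a match was found in 1047 of 21834 other protein-coding genes (4.80%), and in 46 of them (0.211%) within the last 100 bases. The form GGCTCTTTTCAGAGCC was carried by 26 histone genes. The form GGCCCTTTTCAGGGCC was carried by 7, all of them H4 genes.

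What differed between the genes was how far the annotated transcript went on after the hairpin. In 23 genes the transcript that holds the hairpin ended within 100 bases of it, where the cut of the untailed mRNA lies. Hist1h4h is of this kind, with 46 bases after the hairpin. Hist1h2bp was also placed here, by 38 bases after its hairpin at chr13:21787923-21787938. It has 2 annotated transcripts, and its annotation runs on to chr13:21789213. In another 23 genes the transcript ran further, by 840 bases in Hist1h1c, 1214 in Hist1h2bh, 1643 in Hist3h2a, 2010 in Hist1h2ac and 2445 in Hist4h4. The annotation of 8 genes held no hairpin but went on past the stop codon, among them Hist1h2bc, whose 1156 bases lie in 2 exons spread over chr13:23684199-23692908. This class also holds Hist1h2af, at 399 bases, and Hist1h2ah, at 405. They are little longer than Hist1h2ai, an H2A gene of 393 bases that stops at the stop codon. For 13 genes the annotation stopped at the stop codon.

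Detection went with these annotated ends. Among the 23 genes that run past the hairpin, 19 were above 0 in any library and 10 in at least 5 of 15. Among the 23 that end near it, 15 were above 0 in any library and 1, Hist1h4h, in at least 5. Of the 8 without a hairpin that go on past the stop codon, 5 reached 5 libraries, and of the 13 that stop at it none did. Hist1h2af, at 399 bases, is 1 of these 5. The classes also differed in length and in uniqueness. The median length was 1249 bases for the genes that run past the hairpin, 485 for those that end near it and 393 for those that stop at the stop codon, and for the 8 without a hairpin that go on it was 948.5. The median share of their 31-base words that also occur in another gene was 29.4%, 67.2% and 88.0% for the first 3 of these classes. It was 91.0% for the 8 genes without a hairpin that go on, the class with the largest part in 5 or more libraries. Grouped by detection, the median share was 77.1% for genes at 0 in all 15 libraries. It was 63.5% for genes above 0 in 1 to 4 libraries and 30.6% for those in 5 or more. Over all 67 genes that share had a median of 60.2%, and 24 of the genes overlap another annotated gene, so reads of many copies are uncertain. The part of length and of shared sequence in the detection was not tested.

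**Figure D1:**
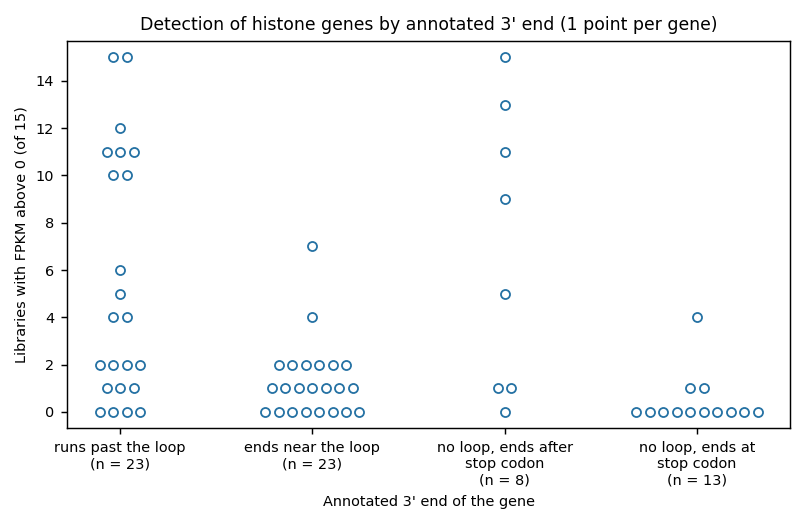
Number of libraries, of 15, in which each of the 67 histone genes was above 0 FPKM (y axis), by the annotated 3′ end of the gene (x axis), with 1 point per gene. The points at 5 libraries or more lie among genes that run past the stem-loop (10 of 23) or lack it and go on past the stop codon (5 of 8), with Hist1h4h the exception at 7 libraries.

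Most of the family was at or near 0. Of the 67 genes, 23 were at 0 in all 15 libraries, 28 were above 0 in 1 to 4 libraries, and 16 in 5 or more. Hist1h1c, Hist1h2bc and Hist3h2a were above 0 in all 15. Every value of 52 genes was under 1 FPKM. The median of the gene means was 0.0182 FPKM, against 0.639 FPKM for the other 21928 protein-coding genes, of which 74.6% were above 0 in at least 5 libraries against 23.9% of the histone genes. Other single-exon protein-coding genes, with olfactory and vomeronasal receptors left out, had 34.1% of 1105 above 0 in at least 5 libraries. In all 15 libraries 8.05% of these single-exon genes were above 0, against 4.48% of the histone genes. Other measures went the opposite way. In any library 50.4% of the single-exon genes were above 0, against 65.7% of the histone genes. The median of gene means was 0.00106 FPKM for the single-exon genes, below the 0.0182 FPKM of the histone genes. The 11 replication-independent histone genes, such as H3f3a, H3f3b and H2afz, whose mRNAs have ordinary tails and are made throughout the cell cycle, were all above 0 in at least 5 libraries with a median of gene means of 4.61 FPKM.

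The number of histone genes above 0 followed depth only in part. In order of mouse number it was 20, 14, 22, 13 and 17 in C. It was 5, 5, 7, 22 and 26 in M, and 10, 12, 15, 15 and 13 in AA. The lowest counts lay in M mice 1 to 3, where 57 of the 67 genes were at 0 in all 3 libraries. Over the 5 mice of a group, 33 genes were above 0 in any C library, 35 in any M library and 18 in any AA library. For a gene of 500 bases, 3 reads correspond to 0.0903 to 0.187 FPKM in C, 0.192 to 0.574 in M and 0.292 to 0.665 in AA, so low levels were less visible in M and AA. This floor covers counting error only.

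**Figure D2:**
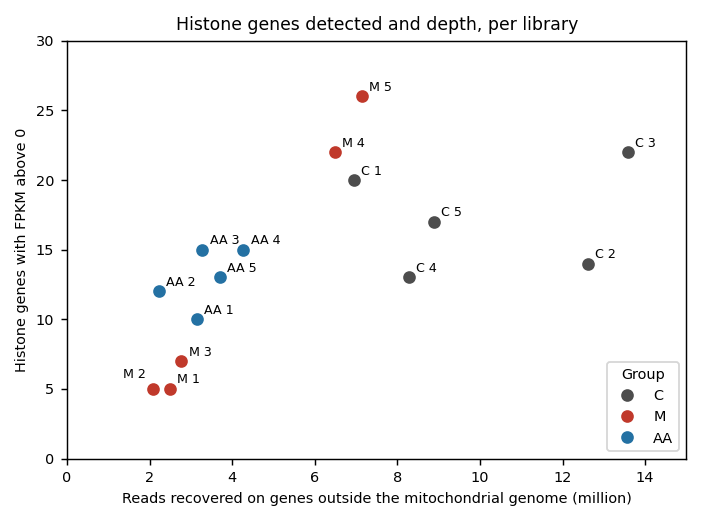
Histone genes above 0 FPKM in each library (y axis) against the reads recovered on genes outside the mitochondrial genome (x axis), coloured by group. M mice 1 to 3 lie lowest with 5 to 7 genes, M mice 4 and 5 are among the highest with 22 and 26, and the AA libraries at 10 to 15 genes.

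The summed level of the 67 genes was similar in the 3 groups. It was 24.4 ± 5.26 FPKM in C, 22.0 ± 4.53 in M and 27.0 ± 3.60 in AA (SD, n = 5 each), and the ranges overlapped. Hist1h1c and Hist1h2bc together made 38.4 to 94.4% of it in a library. The ratio of the group means was 0.900 for M to C and 1.11 for AA to C as deposited. Scaled to the total without mitochondrial genes it was 0.936 and 1.01. In TPM, where every library has the same total and the mitochondrial share enters, it was 0.476 and 0.536. The direction of AA to C was therefore not fixed by these data.

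By cluster, Hist1 summed to 16.1 to 25.6 FPKM in C, 14.5 to 26.8 in M and 21.5 to 29.4 in AA. Hist2 summed to 0.733 to 3.06, 0 to 1.90 and 0.112 to 2.90, and Hist3 to 0.165 to 2.17, 0.201 to 3.03 and 0.0621 to 1.14. The groups overlapped in each of these clusters. By type, H2B summed to 9.28 to 17.3 FPKM in C, 8.47 to 11.8 in M and 9.14 to 18.3 in AA, and H1 to 3.94 to 8.97, 3.95 to 14.6 and 4.69 to 13.4. H4 summed to 1.53 to 3.81, 0 to 5.19 and 0.452 to 3.09, and H3 to 0 to 1.84, 0 to 1.13 and 0 to 1.95. H2A was the type with the least overlap, at 0.275 to 3.15 FPKM in C, 0.201 to 2.91 in M and 2.16 to 5.23 in AA. The 23 genes that end near the hairpin summed to 0.859 to 2.32 FPKM in C, 0 to 3.34 in M and 0 to 0.853 in AA, so all AA kidneys lay below all C kidneys. The groups nearly met, with C 1 at 0.859 and AA 2 at 0.853, the latter on 4 reads of Hist2h2ac. In C 4 the whole sum was Hist1h4h. Low levels of such short genes were also less visible in AA than in C. Sums over genes chosen as a family were not tested.

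**Figure D3:**
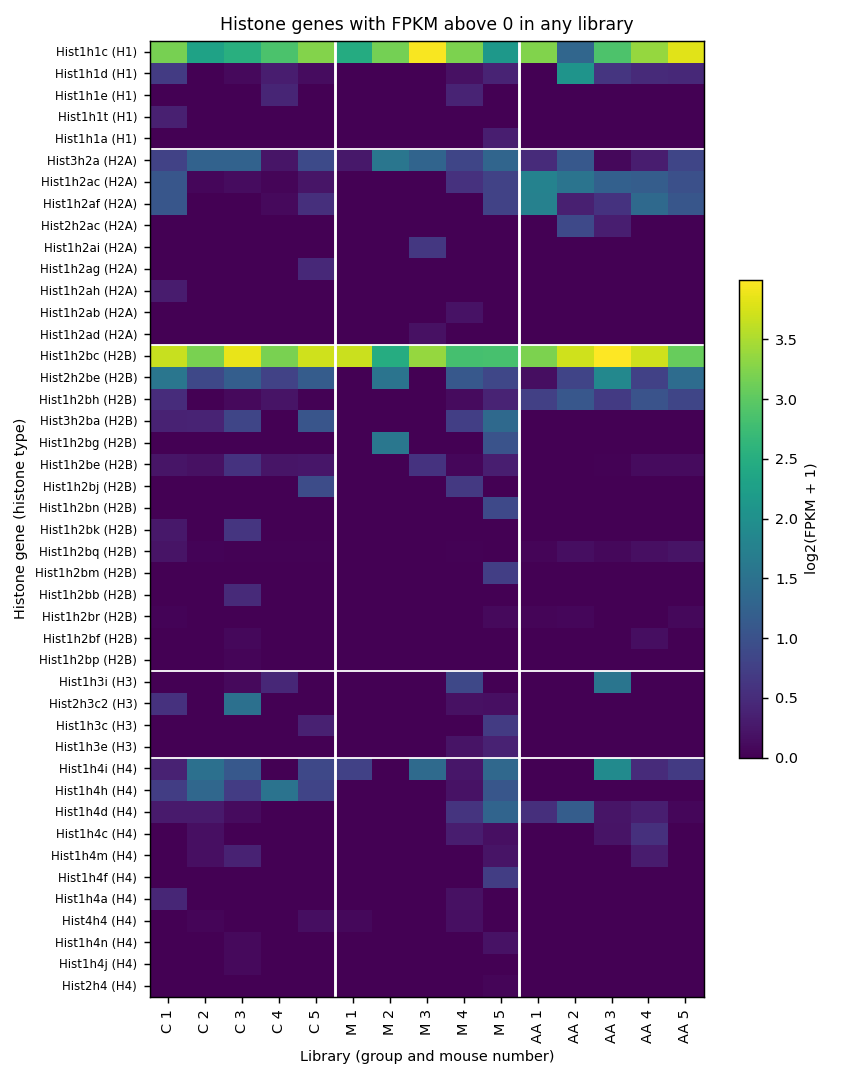
Level of the 44 histone genes that were above 0 in any library, as log2(FPKM + 1) by colour, with genes in rows grouped by histone type and libraries in columns grouped as C, M and AA. Hist1h1c and Hist1h2bc are bright in every column, Hist1h2ac, Hist1h2af and Hist1h2bh stand out in the AA columns, Hist1h4h is dark in all AA columns, and M mice 1 to 3 are dark in most rows.

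The H1 genes encode the linker histone that binds DNA between nucleosomes, and 1 of the 6 carried nearly all of their signal. Hist1h1c (ENSMUSG00000036181, chr13:23738808-23740367, plus strand, 1 exon), the gene of histone H1.2, was at 8.08, 3.94, 4.75, 6.33 and 8.60 FPKM in C mice 1 to 5. It was at 4.53, 7.97, 14.6, 8.26 and 3.37 in M mice 1 to 5, and at 8.47, 1.49, 6.36, 9.31 and 13.1 in AA mice 1 to 5. The 3 groups overlapped over most of their range, with the highest value in M 3 and the lowest in AA 2. Hist1h1d, the gene of histone H1.3, was at 0 to 0.616 FPKM in C, 0 to 0.319 in M and 0 to 3.20 in AA, where mouse 2 was far above the other mice. Hist1h1e was above 0 in C 4 and M 4 alone, at 0.337 and 0.318 FPKM, and its annotation shares 450 bases with Hist1h2be on the same strand. Reads there could not be assigned to either gene with certainty.

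H2A forms dimers with H2B at the outside of the nucleosome, and 9 of its 18 genes were at 0 in every library. Hist3h2a (ENSMUSG00000078851, chr11:58954685-58956830, plus strand) was at 0.165 to 1.38 FPKM in C, 0.201 to 1.96 in M and 0.0621 to 1.14 in AA, with overlap of all groups. Its annotation shares 708 bases with Trim17 on the same strand. Hist1h2ac (ENSMUSG00000069270, chr13:23681467-23683948, minus strand, 1 exon of 2482 bases) was the H2A gene with the clearest group pattern. It was at 1.10, 0.0501, 0.0910, 0.0357 and 0.169 FPKM in C mice 1 to 5, at 0, 0, 0, 0.481 and 0.723 in M mice 1 to 5, and at 2.43, 1.92, 1.34, 1.25 and 0.976 in AA mice 1 to 5. Every AA kidney lay above every M kidney, while C 1 lay above AA 5. These levels rest on 3 to 88 reads in C, 35 and 56 reads in M 4 and M 5, and 39 to 82 reads in AA. Hist1h2af (ENSMUSG00000061991, chr13:23533906-23534304, plus strand, 399 bases) was at 0 to 1.09 FPKM in C, at 0 in M mice 1 to 4 and 0.723 in M 5, and at 2.39, 0.278, 0.501, 1.58 and 1.09 in AA mice 1 to 5. AA 2 and AA 3 lay below M 5, and the AA values rest on 1 to 13 reads. Of its 31-base words, 94.3% also occur in another gene, so reads could have been split among near-identical copies.

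Of the 18 H2A genes, 17 overlap an annotated miRNA gene on the opposite strand by 129 to 144 bases. All 17 of those miRNA genes were at 0 in every library. Whether the counting used strand is not given in the sources used here.

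H2B, the partner of H2A, had the most genes above 0, with 15 of 18 in any library and 7 in at least 5. Hist1h2bc (ENSMUSG00000018102) was the highest histone gene of the family, at 11.7, 8.18, 13.6, 8.20 and 12.0 FPKM in C mice 1 to 5. It was at 11.8, 4.55, 9.36, 6.08 and 6.15 in M mice 1 to 5 and at 8.26, 12.1, 14.99, 12.0 and 7.36 in AA mice 1 to 5. All 3 groups overlapped, although 4 of the 5 M kidneys lay between 4.55 and 9.36. Hist2h2be (ENSMUSG00000068854, chr3:96221119-96223738, plus strand), the leading gene of the Hist2 cluster, was at 0.733 to 1.96 FPKM in C, 0 to 1.90 in M and 0.112 to 2.65 in AA. Hist1h2bh (ENSMUSG00000114456, chr13:23541714-23543392, minus strand) was at 0.427, 0, 0.0717, 0.158 and 0.0178 FPKM in C mice 1 to 5, at 0, 0, 0, 0.0812 and 0.324 in M mice 1 to 5, and at 0.700, 1.12, 0.595, 1.04 and 0.777 in AA mice 1 to 5. All 5 AA kidneys lay above all 10 others. The AA levels rest on 15 to 36 reads per library.

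Hist1h2bh and Hist1h2af lie 7409 bases apart at the edge of a 404 kb stretch of the Hist1 cluster, with Hist1h4h 2386 bases beyond Hist1h2af. Hist1h2ac lies in the same stretch of 31 genes, of which 10 were above 0 in at least 5 libraries. The other Hist1 stretch, 328 kb long, holds 23 genes, of which 3 were.

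H3 and H4 form the core of the nucleosome, and H3 was the least detected type. Of its 12 genes, 8 were at 0 in all libraries and none was above 0 in 5 or more. Hist1h3i was above 0 in C 3, C 4, M 4 and AA 3, at 0.0732, 0.359, 0.830 and 1.95 FPKM. Hist2h3c2 was above 0 in C 1, C 3, M 4 and M 5, with its highest value of 1.77 FPKM in C 3, and Hist1h3c in C 5 and M 5, at 0.285 and 0.610. These isolated values formed no group pattern, and no H3 gene could be tested.

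Of the 13 H4 genes, 11 were above 0 in any library and 4 in at least 5. Hist1h4i (ENSMUSG00000060639, chr13:22040636-22041362, minus strand) was at 0 to 1.78 FPKM in C, 0 to 1.62 in M and 0 to 2.75 in AA. Hist1h4d was at 0 to 0.219 FPKM in C, 0 to 1.44 in M and 0.0546 to 1.27 in AA. Both genes overlapped between all groups. Hist1h4h (ENSMUSG00000060981, chr13:23531050-23531519, plus strand, 470 bases) was at 0.663, 1.54, 0.641, 1.89 and 0.763 FPKM in C mice 1 to 5. It was at 0, 0, 0, 0.145 and 1.09 in M mice 1 to 5, and it was listed at 0 in all 5 AA libraries. The C levels rest on 10 to 30 reads, and a count of 0 allows 0.310 to 0.708 FPKM in the AA libraries and 0.204 to 0.611 in the M libraries, taking 3 reads per library. The C kidneys all lay above the AA kidneys and overlapped with M 5. Hist4h4 was at most 0.119 FPKM in any library and at 0 in all AA libraries. Hist3h2ba, an H2B gene chosen after its values were seen, was at 0.304, 0.324, 0.784, 0 and 1.07 FPKM in the C kidneys and at 0, 0, 0, 0.666 and 1.57 in the M kidneys, in mouse order, and it too was listed at 0 in all AA libraries, where 3 reads correspond to 0.237 to 0.542 FPKM.

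**Figure D4:**
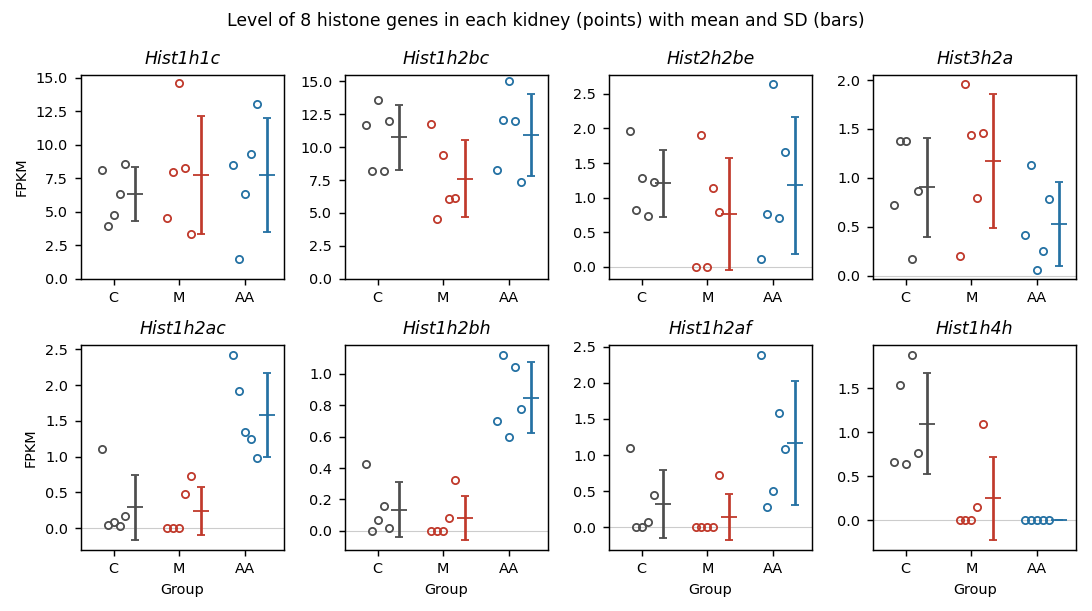
Level in FPKM (y axes, linear) of 8 histone genes in each kidney (open points) of the groups C, M and AA (x axes), with the mean and SD of 5 kidneys as a bar beside the points. Hist1h1c, Hist1h2bc, Hist2h2be and Hist3h2a overlap between groups, Hist1h2ac and Hist1h2bh lie higher in AA than in M, and Hist1h4h is at 0 in AA.

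The comparison of M with C asks what the adenine diet did to these genes, and no histone gene passed the test. The test was limma on log2(FPKM + 1), for genes above 0 in at least 5 of the 10 libraries, with p-values adjusted over all genes tested by Benjamini-Hochberg, and a gene was called when its adjusted p did not exceed 0.05 and its log2 fold change was 1 or more in size. Of the 67 genes, 13 could be tested and 0 were called, where 1.38% of all 21153 genes were called in either direction. At an unadjusted p under 0.05 there was 1 of 13, Hist1h4h, against 16.5% of all genes, and limma voom on the recovered reads also called 0, with 1 at an unadjusted p under 0.05. None of the 13 was without overlap between M and C, against 4.72% of all genes. Hist1h4h differed by −0.78 (SE 0.27) in log2(FPKM + 1), with an adjusted p of 0.183 in limma. Hist1h2bc differed by −0.49 (SE 0.30, adjusted p 0.442) and Hist1h1c by 0.16 (SE 0.37, adjusted p 0.841). The direction of Hist1h1c turned to −0.16 with M mice 4 and 5 only and to −0.77 in TPM. The median difference of the 13 genes was −0.07, beside −0.12 for all genes tested. In bulk kidney RNA, fewer cells of a type and less RNA per cell cannot be told apart.

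The comparison of AA with M asks what asiatic acid added to the adenine diet, and Hist1h2ac was higher with AA. Of 12 histone genes tested, 1 was called higher (8.33%), where 11.7% of all 19798 genes were called higher. Hist1h2ac was at 1.58 ± 0.583 FPKM in AA against 0.241 ± 0.341 in M (SD, n = 5 each), a difference of 1.07 (SE 0.27) in log2(FPKM + 1) with an adjusted p of 0.0154 in limma. Hist1h2bh was at 0.847 ± 0.226 against 0.0811 ± 0.140 FPKM, a difference of 0.77 (SE 0.17, adjusted p 0.00845), which passed the adjusted p but not the fold. Hist1h2af was at 1.17 ± 0.854 against 0.145 ± 0.323 FPKM, a difference of 0.87 (SE 0.28, adjusted p 0.0478), likewise. These 3 of 12 genes passed the adjusted p at any fold, against 17.8% of all genes. Every AA value lay above every M value for 3 of 12 genes, Hist1h2ac, Hist1h2bh and Hist1h2bq, against 11.9% of all genes. The first count lies near its background share, and none of the 3 counts is a result about histone genes as a family. Hist1h2bq was chosen after its values were seen. Hist1h2ac, Hist1h2bh, Hist1h2bq and Hist1h2af were above 0 in all 5 AA libraries and in 2, 2, 1 and 1 of the 5 M libraries. They therefore entered the test through AA. Hist3h2ba, above 0 in 2 M libraries and at 0 in AA, could not enter, so these counts are no independent support for a direction.

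The difference in Hist1h2ac rested in part on M mice 1 to 3, the 3 shallow libraries where it was at 0. With M mice 4 and 5 only it was 0.67 (adjusted p 0.202), and limma called 0 of the 12 genes, with 1 at an unadjusted p under 0.05. The difference of the abundant gene Hist1h2bc was 0.50 (SE 0.33, adjusted p 0.321) and that of Hist1h1c was −0.06 (SE 0.48, adjusted p 0.948). The median over the 12 genes was 0.22, beside 0.17 for all genes tested.

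The comparison of AA with C shares its AA libraries with the one before, and its values are set beside it. Of 13 histone genes tested, 1 was called higher, Hist1h2ac, and 1 was called lower, Hist1h4h. Each is 7.69% of the genes tested, where 10.2% of all 21898 genes were called higher and 9.61% lower. Hist1h2ac was at 1.58 FPKM in AA against 0.290 ± 0.458 in C, a difference of 1.03 (SE 0.24) in log2(FPKM + 1) with an adjusted p of 0.00673 in limma. The groups overlapped through C 1 alone. This call was lost in 5 of 10 fits with 1 library left out, where the difference was 0.92 to 1.22 (adjusted p 0.00158 to 0.0207), and in 5 of 11 other alternatives. Among these was TPM, where Hist1h2ac differed by 0.87 (adjusted p 0.0681), and Hist3h2a was called lower in its place. Hist1h4h, listed at 0 in AA against 1.10 ± 0.575 FPKM in C, differed by −1.03 (SE 0.17) with an adjusted p of 0.00141, a size that depends on the value of 1 added before the logarithm. This gene entered the test through its 5 C libraries alone. Hist1h2bh differed by 0.71 (SE 0.15, adjusted p 0.0038), again short of the fold. These 3 of 13 genes passed the adjusted p at any fold, against 35.9% of all genes.

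Groups without overlap were found for 1 of 13 genes in the higher direction, Hist1h2bh, against 11.5% of all genes. In the lower direction there were 2 of 13, Hist1h4h and Hist1h2be, against 12.5% of all genes. Hist1h2be, chosen after its values were seen, was at 0.168, 0.134, 0.494, 0.166 and 0.188 FPKM in C mice 1 to 5 and 0, 0, 0.0150, 0.0874 and 0.0838 in AA mice 1 to 5, a difference of −0.24 (SE 0.09, adjusted p 0.0512). Both abundant genes were close to 0 difference, Hist1h2bc at 0.01 (SE 0.24) and Hist1h1c at 0.10 (SE 0.41). The 95% intervals, −0.52 to 0.54 and −0.79 to 0.98, leave room for a change of moderate size in either direction. The median over the 13 genes was 0.07, beside 0.09 for all genes tested.

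**Figure D5:**
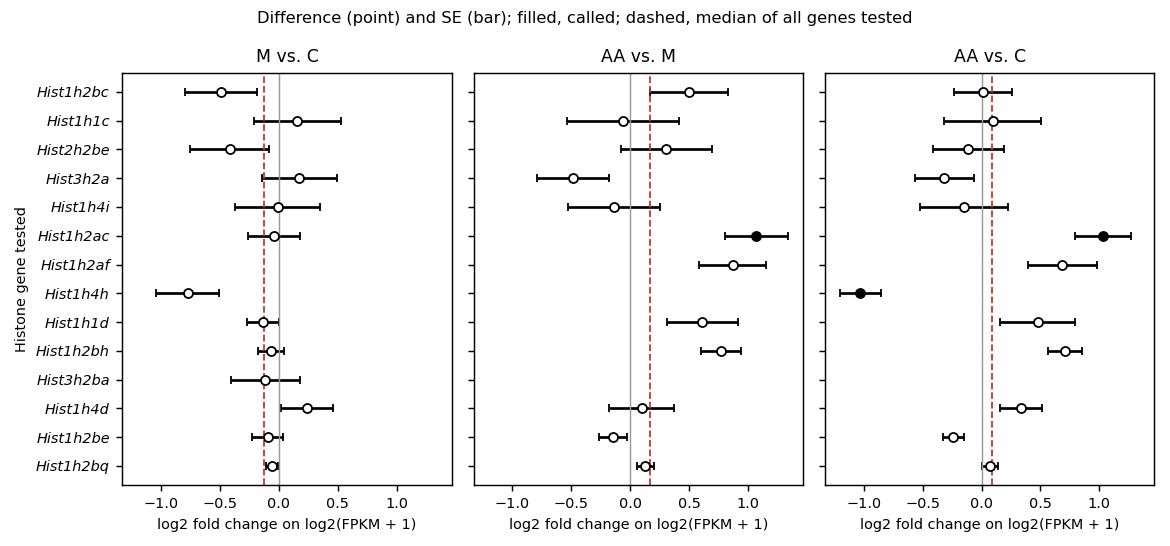
Difference in log2(FPKM + 1) of each histone gene tested (points) with its SE (bars), in 1 panel per comparison. Filled points are the called genes, Hist1h2ac in AA vs. M (1.07) and AA vs. C (1.03) and Hist1h4h in AA vs. C (−1.03), and the dashed line is the median of all genes tested (−0.12, 0.17 and 0.09).

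Hist1h2ac and Hist1h2bc are a head-to-head pair whose annotated starts lie 250 bases apart, and with the deposited scaling only the former was called in any comparison. Activity of the stretch between them as a promoter of both genes was not tested. Of its 250 bases, the 239 that lie before the RefSeq start of Hist1h2ac are shown. They were read from RefSeq on GRCm38.p6 at chr13:23683960-23684198, and are written 5′ to 3′ on the minus strand, towards Hist1h2ac, with matches to CCAAT or ATTGG, ATGCAAAT and TATAAA in capitals.

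Hist1h2ac promoter: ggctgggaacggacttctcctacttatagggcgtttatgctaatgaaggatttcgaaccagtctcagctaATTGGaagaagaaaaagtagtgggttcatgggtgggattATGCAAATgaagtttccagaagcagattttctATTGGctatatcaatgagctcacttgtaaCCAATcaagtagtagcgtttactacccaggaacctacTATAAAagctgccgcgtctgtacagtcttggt

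The level of Hist1h2ac relative to Hist1h2bc, as the difference of their log2(FPKM + 1) values in each kidney, was −3.22 ± 0.433 in C, −2.77 ± 0.716 in M and −2.20 ± 0.509 in AA (SD, n = 5 each). It was higher by 1.02 in AA than in C (two-sided exact permutation p 0.0159, adjusted over 3 comparisons 0.0476, where 0.00794 is the smallest p the design allows). The difference between AA and M was 0.57 (exact p 0.198, adjusted 0.27) and that between M and C was 0.45 (exact p 0.27, adjusted 0.27). With M mice 4 and 5 only, the difference between AA and M was −0.04. The pair was chosen after its values were seen, so these p-values are no independent evidence.

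The CCAAT box, bound by the factor NF-Y, and the octamer, bound by Oct1, are known elements of histone promoters. Promoters of 300 bases, 250 before and 50 after the start, were found in RefSeq for 61 of the 67 genes, and motifs were searched on both strands. CCAAT was in 52 of 61 (85.2%), against 37.8% of 26964 other promoters. It was in every H1, H2A, H2B and H3 promoter matched and in 3 of 12 H4 promoters. The octamer ATTTGCAT was in 13 of 61 (21.3%), against 1.71% of the others, and these were 7 of 17 H2A and 6 of 16 H2B promoters. TATAAA was in 57.4% against 14.1%. The H1 box AAACACA was in 5 of 6 H1 promoters, against 7.12% of the others. A match is a run of letters and was not tested as a binding site.

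The genes that make and handle histone mRNA were read from lists of known factors. Of 18 factors of histone mRNA processing and transcription, 0 were called in M vs. C by limma (2 at an unadjusted p under 0.05, 0 by limma voom), with a median difference of 0.02. In AA vs. M, 1 of 17 tested was called lower, Ncbp1, a subunit of the nuclear cap-binding complex. It was at 1.30 FPKM in AA against 6.26 in M, a difference of −1.44 (SE 0.42, adjusted p 0.0294). The call was lost in 7 of 10 fits with 1 library left out (adjusted p up to 0.0752) and in 6 of 14 other alternatives. The difference was −0.62 (adjusted p 0.257) with M mice 4 and 5 only, and another gene of the list was then called lower. In AA vs. C, 1 of 17 was called lower (5.88%), against 9.61% of all genes tested. This was Srrt, which links the cap to histone 3′ end formation. It was at 1.59 FPKM in AA against 16.5 in C, a difference of −2.73 (SE 0.29, adjusted p 1.6e-04). In TPM 7 of the 17 factors were called lower, beside 5438 of 15763 protein-coding genes. By limma voom 3 of the 17 were called lower, beside 2987 of 15763.

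Slbp, the stem-loop binding protein, was at a mean of 1.14 FPKM in C, 1.12 in M and 1.92 in AA, a difference between AA and M of 0.44 (adjusted p 0.348). Npat, the factor that switches histone transcription on, was at 0.632, 1.43 and 0.477 FPKM, a difference of −0.64 (adjusted p 0.147). Among 11 histone chaperones, limma called 0 in M vs. C, and 0 when AA was set against M, with 2 at an unadjusted p under 0.05 in each and 0 by limma voom. In AA vs. M, 1 chaperone was called lower with M mice 4 and 5 only. In AA vs. C, 1 of the 11 was called lower (9.09%), against 9.61% of all genes tested. This was Cabin1 of the complex that deposits histone H3.3, at 0.450 FPKM against 3.78 (difference −1.64, SE 0.28, adjusted p 0.00135). In TPM 6 of the 11 chaperones were called lower in AA vs. C, beside 5438 of 15763 protein-coding genes. By limma voom 3 of the 11 were called lower, beside 2987 of 15763. Among the 11 replication-independent histone genes 0 were called when M was set against C or AA against M (2 and 0 at an unadjusted p under 0.05, 0 by limma voom), and in AA vs. C 1 was called lower, H2afj, at 4.34 FPKM against 9.39 (difference −1.07, SE 0.38, adjusted p 0.0442). The H2afj call was lost in 8 of 10 fits with 1 library left out, where the difference was −1.35 to −0.77 with an adjusted p of up to 0.109, and in 6 of 12 other alternatives. The 1 of 11 called lower also lies near the 9.61% of all genes. In AA vs. C, TPM called 3 of these 11 genes lower and limma voom called 1.

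Genes of S phase and mitosis lay mostly above 0 in M vs. C, and none was called. Of 27 tested in M vs. C, 0 were called by limma and 0 by limma voom, 13 were at an unadjusted p under 0.05, and 25 lay above 0, with a median of 0.59 beside −0.07 for the histone genes. The median was 0.32 in TPM and 0.23 with M mice 4 and 5 only. In AA vs. M, 1 of 27 was called lower, Mki67, the proliferation marker, at 0.176 FPKM in AA against 2.48 in M (difference −1.39, SE 0.38, adjusted p 0.0216), and the median was −0.40. Mki67 differed by −0.96 (adjusted p 0.052) with M mice 4 and 5 only and the median was −0.08, and neither that setting nor TPM called any of the 27 genes by limma, with 6 and 8 at an unadjusted p under 0.05. In AA vs. C, 0 of 27 were called by limma, 11 were at an unadjusted p under 0.05, 6 were called higher by limma voom, and the median was 0.20. The summed level of the list was 13.5 to 18.02 FPKM in C, 19.8 to 89.7 in M and 16.8 to 31.9 in AA. Fen1, a nuclease every replicating cell uses, was listed at 0 in all 15 libraries, so a 0 in this table need not mean absence.

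Other short or unspliced gene classes also moved in AA. Against M, 104 of 162 small nuclear and nucleolar RNA genes were called higher, as were 514 of 1607 processed pseudogenes, 36 of 220 olfactory and vomeronasal receptor genes and 38 of 294 other single-exon protein-coding genes, beside 716 of 14743 protein-coding genes in all. There were 0, 3, 0 and 5 called lower in the 4 classes, and 201 protein-coding genes in all. With M mice 4 and 5 only, the genes called higher fell to 26, 120, 3 and 10, beside 115 protein-coding genes in all, and in TPM to 41, 126, 2 and 6, beside 46.

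Against C, 88 of 194 small RNA genes were called higher and 6 lower, beside 742 higher and 1899 lower of 15763 protein-coding genes in all. There were 509 higher and 30 lower of 1824 processed pseudogenes, 31 higher and 0 lower of 249 receptor genes, and 44 higher and 19 lower of 348 other single-exon genes. In TPM the small RNA genes had 44 higher and 8 lower, the pseudogenes 220 and 95, and the receptor genes 13 and 0. The other single-exon genes turned to 10 higher and 68 lower in TPM, beside 197 and 5438 of all protein-coding genes. These classes moved in the same AA libraries in which Hist1h2ac was higher, and their part in that result was not tested.

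Cell type markers differed between groups too. Over all genes tested, 0.269% were called higher and 1.11% lower when M was set against C. These shares were 11.7% and 1.07% for AA against M, and 10.2% and 9.61% for AA against C. Of 15 proximal tubule markers, 9 were called lower in M vs. C, and 12 were called lower in AA than in C. There was 1 that was called higher in AA vs. M. Of 10 macrophage markers, 4 were called higher in M vs. C, 1 lower in AA vs. M, and 5 higher and 1 lower in AA vs. C, with a summed level of 19.9 to 123 FPKM in C, 165 to 478 in M and 116 to 172 in AA. Of 10 fibroblast and myofibroblast markers, 2 were called higher in M vs. C, 1 higher and 1 lower in AA vs. M, and 7 higher in AA vs. C, with sums of 79.3 to 184, 168 to 519 and 325 to 568 FPKM. Of 10 T cell markers, 2 were called higher in AA vs. M and in AA vs. C, and 0 in M vs. C (limma, with 0 at an unadjusted p under 0.05 and 0 by limma voom), with sums of 2.02 to 13.5 FPKM in C, 1.74 to 27.0 in M and 14.7 to 25.7 in AA. With M mice 4 and 5 only, limma called 0 proximal tubule, 0 macrophage and 0 fibroblast markers in M vs. C (13, 7 and 3 at an unadjusted p under 0.05), with median differences of −2.57, 1.79 and 0.62 beside −2.79, 1.81 and 0.98 with all M mice. In AA vs. M this setting called 2 proximal tubule markers higher and 2 lower, 0 macrophage and 0 fibroblast markers, and 0 T cell markers higher and 1 lower, so the direction of the T cell calls turned. TPM called 0 T cell markers in AA vs. M and 1 higher in AA vs. C. The part of a changed cell makeup in the histone results was not tested.

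Markers of B and plasma cells (10 genes, 6.66 to 164 FPKM in C, 18.1 to 55.4 in M, 6.17 to 19.0 in AA), of erythroid cells (8 genes, 33.1 to 214, 14.0 to 33.3 and 7.73 to 41.3) and of the endothelium (10 genes, 67.4 to 146, 32.5 to 100.3 and 58.0 to 122) were called lower in AA vs. C for 2, 2 and 1 genes. With the deposited scaling, none of the 3 lists had a called gene in M vs. C or AA vs. M, by limma or by limma voom. In limma 1, 4 and 2 and then 3, 1 and 1 genes were at an unadjusted p under 0.05. Setting AA against M mice 4 and 5 only, 1 endothelial marker was called lower. In TPM the lower calls were 1, 5 and 2 in M vs. C, and 3, 5 and 7 in AA vs. C. They stood beside 1408 of 15656 and 5438 of 15763 protein-coding genes called lower in TPM. With the deposited scaling, the 2 B and plasma cell genes called in AA vs. C were Cd79b and Mzb1, at 0 in all AA libraries. There were 3 others of that list that had a higher mean in AA than in C and were not called.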

How the data were processed

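Kidney RNA of 15 mice was sequenced after poly-T capture. Per the labels and the study's methods, reads were cleaned with fastp, aligned to mm10 with HISAT2 2.0.5 and counted per gene with featureCounts 1.5.0-p3. The authors deposited FPKM per gene and library. Gene names came from GENCODE M21 on GRCm38 (37 of 54532 IDs unmatched), and 3 pseudogenes that match the symbol rule were left out. The histone genes and gene lists were chosen with earlier results of these data known.

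Values were whole multiples of 1 read for 97.6 to 98.9% of low values per library (tolerance 0.05, under 30 reads). Even read numbers were more frequent, so a factor of 2 in depth is open. The library size implied by the steps was 9018652 to 66435853 reads, against 13647563 to 28885885 reads on genes, so the deposited values are not scaled to each library's gene total.

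Groups were compared with limma 3.58.1 (R 4.3.3, trended eBayes) on log2(FPKM + 1), in 10 libraries per comparison, tested on simulated data first. Fold changes on this scale understate the change of low genes. The p-values measure the spread between libraries, 1 per mouse, and depth also differed between the libraries of a group. The study's count test was replaced in the main fits because the values used were FPKM. Reads recovered from these values entered limma voom, 1 of the alternatives. Named genes were the called ones, the 3 highest by mean FPKM of each type, the highest of Hist2, Hist3 and Hist4, Slbp, Npat and called genes of the factor lists. Alternatives covered the pseudocount, filters, scalings, fits, limma voom and each library left out. The replicate numbers did not pair the mice.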

Additional observations from a re-analysis of the deposited data

Results flagged for a closer look

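Of 41 sets of 5 libraries examined, 6 held a library far from the other 4 of its group, by the gap to its nearest neighbour relative to the range of the group. Chance gives about 1 in 20 for independent sets of normally distributed values. The sets here share libraries and hold many low values, so the 6 of 41 cannot be judged against that share. Hist1h2ac in C 1 was at 1.10 FPKM, with the other C libraries at 0.0357 to 0.169. Hist1h1d in AA 2 was at 3.20 FPKM, and Hist1h4i in AA 3 was at 2.75 FPKM. M 5 was the high library for 3 genes, Hist1h2af at 0.723, Hist1h2bh at 0.324 and Hist1h4h at 1.09 FPKM, and it was also the library with the most histone genes above 0, at 26. The causes were not tested.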

How the results depend on the processing

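Counts of called histone genes were small and moved with the processing. In M vs. C the count of 0 became 1 with TPM (Hist1h2bc) and 1 with M mice 1 to 3 only (Hist1h4h), and it was 0 with M mice 4 and 5 only and 0 to 0 over the libraries left out in turn. In AA vs. M the count of 1 became 3 with a pseudocount of 0.1, 2 with limma voom on recovered reads and 2 with M mice 1 to 3 only. It became 0 with TPM, quantile normalization, centring on the library median, library quality weights, M mice 4 and 5 only and a mean FPKM of at least 1, which left only 2 histone genes tested, and it ranged from 0 (without AA 1) to 2 (without M 5 or AA 2) with 1 library left out. In AA vs. C the count of 2 stayed 2 with TPM, with Hist3h2a called lower in place of Hist1h2ac called higher, and it became 4 with a pseudocount of 0.1 and 4 with limma voom, 1 with the total without mitochondrial genes, quantile normalization and centring (Hist1h4h in each), and 0 with quality weights and a mean FPKM of at least 1. With 1 library left out it ranged from 0 (without C 2 or C 4) to 2, with 1 without C 3, AA 1 or AA 2. The ratios of summed level moved with TPM to 0.476 for M to C and 0.536 for AA to C. With the total without mitochondrial genes they were 0.936 and 1.01. The M mice 4 and 5 and M mice 1 to 3 settings and those of the Hist1h2ac and Hist1h2bc pair were chosen after seeing the data. Apart from the filters, the cause was not tested.

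Reversed values were few. Hist1h1c in M vs. C was −0.77 with TPM, −0.16 with M mice 4 and 5 only and −0.086 without M 3, in a range of −0.086 to 0.37 over libraries left out. In AA vs. M, centring turned Hist1h2bc to −0.015 and Slbp to −0.077, and the Hist1h2ac minus Hist1h2bc difference was −0.041 with M mice 4 and 5 only. Hist1h2ac ranged from 0.56 to 4.597 in AA vs. M and from 0.87 to 3.49 in AA vs. C over the other alternatives (adjusted p 0.00371 to 0.202 and 0.00617 to 0.0681), and Hist1h4h from −3.74 to −0.99 in AA vs. C (adjusted p 8.2e-05 to 0.00663). Scaling also moved all genes: the median of all genes in AA vs. M went from 0.17 to −0.35 with centring and in AA vs. C from 0.09 to −0.39 with TPM, and in M vs. C from −0.12 to −0.58 with TPM. The share of all calls that were higher was 91.6% in AA vs. M, 69.5% with quantile normalization and 43.1% with centring. It was 51.6% in AA vs. C, 12.7% with TPM and 40.1% with centring, and 19.6% in M vs. C, 1.93% with TPM and 38.9% with centring.

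With the replicate number as a block the counts were 0, 1 and 2, as without it. The deviations of same-numbered mice correlated by −0.07 to 0.22 in M vs. C, −0.08 to 0.05 in AA vs. M and −0.13 to 0.18 in AA vs. C, and 2, 0 and 1 of 5 pairs were over 0.1, so the numbers did not pair the mice. Ending a stem-loop class at 60 bases in place of 100 gave 24 and 22 genes in place of 23 and 23, and the alternative that looks past the annotated end was not run because no genome sequence was used here. The depth of M mice 1 to 3, at 2077725 to 2770026 reads outside the mitochondrial genome, limits what M can show for genes of a few reads.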

Other observations

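Gm42743, a long noncoding RNA gene that overlaps the histone gene Hist2h2bb by 226 bases on the same strand, was chosen after its values were seen. It was at 0.927, 0, 0.120, 1.04 and 0.514 FPKM in C mice 1 to 5, at 0, 0, 0, 0.203 and 0.403 in M mice 1 to 5, and at 5.25, 2.64, 1.41, 1.74 and 1.07 in AA mice 1 to 5. Every AA kidney lay above every other kidney, while Hist2h2bb itself was at 0 in all 15 libraries. Of all genes tested, 11.9% had every AA value above every M value, and 11.5% had every AA value above every C value. The difference in log2(FPKM + 1) was 1.505 (SE 0.32, adjusted p 0.00722 in limma) for AA vs. M and 1.11 (SE 0.32, adjusted p 0.0189) for AA vs. C. The former includes the shallow M mice 1 to 3, where this gene was at 0, and its value with M mice 4 and 5 only is not given here.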
